A study of Mus musculus with 4 samples.

Results

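The topologically associating domains (TADs) around 3 Polycomb genes, Ezh1, Ezh2 and Bmi1, were compared between fetal and adult haematopoietic stem cells (HSCs) of the mouse. The genes were chosen by name, and each was placed by an approximate mm9 interval with edges in steps of 10 kb. These intervals came with the choice of genes and were not read from a deposited file. Ezh1 was taken to lie on chromosome 11 from 101.05 to 101.09 Mb, Ezh2 on chromosome 6 from 47.48 to 47.55 Mb, and Bmi1 on chromosome 2 from 18.59 to 18.61 Mb. Each gene lay whole inside 1 TAD of each list, so 3 of 2318 fetal TADs and 3 of 2310 adult TADs held a member.

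The contacts were measured by Hi-C, which ligates pieces of DNA that touch in fixed nuclei and counts the joined pairs by sequencing. A TAD is a stretch of chromosome whose parts contact each other more often than they contact the stretches beside it, and its ends are called boundaries. The 4 samples came from mice of the strain B6129SF1, with no genotype or treatment given. The fetal group had 2 samples of liver taken at embryonic day 14.5, and the adult group had 2 samples of bone marrow taken at 6 to 8 weeks of age. Tissue and age thus differed together, and a difference between the stages below means a difference in both. In both tissues the cells were sorted as Lin-, Sca1+, cKit+ and CD135-, a gate that marks a population enriched for stem cells. The sources used here do not give the number of mice pooled in a sample. The lists hold no expression values, so the sorted cell type could not be checked against its markers.

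Both samples of a group name the same TAD list, so each stage had 1 list, and no value below has a replicate error or a p-value. The depth of the contact maps is unknown. Coordinates lay on a grid of 10 kb in all but 10 entries of each list, so an offset of 10 kb was the smallest step that could be seen. A boundary was called matched where the other list had a boundary within 40 kb.

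Polycomb proteins keep genes silent through marks on histones. Ezh1 and Ezh2 are the alternative catalytic subunits of Polycomb repressive complex PRC2, which methylates a lysine of a histone tail, and Ezh2 is the form most used in dividing cells. Bmi1, also named Pcgf4, is a subunit of the complex PRC1, which attaches ubiquitin to a histone and compacts chromatin, and it is required for the self-renewal of adult HSCs. Ezh2 is known for its need in fetal liver blood formation, and Ezh1 for its role in adult HSCs.

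The holding TADs were alike at both stages. Of their 6 ends, 3 stood at the same coordinate in both lists, 2 differed by 10 kb and 1 differed by 60 kb. The end that differed by 60 kb was the high-coordinate end of the Ezh1 TAD, so 5 of 6 ends were matched within 40 kb. Over all boundaries the matched share was 83.4% of 2393 fetal and 83.5% of 2391 adult ones, so 5 of 6 is near the background. Identical positions made up 30.1% of fetal boundaries, and with 6 ends the count of 3 is a description only. The fetal and adult TADs of each gene overlapped by more than 80% of both lengths for all 3 genes, where 73.4% of fetal and 73.7% of adult TADs had such a counterpart.

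**Figure D1:**
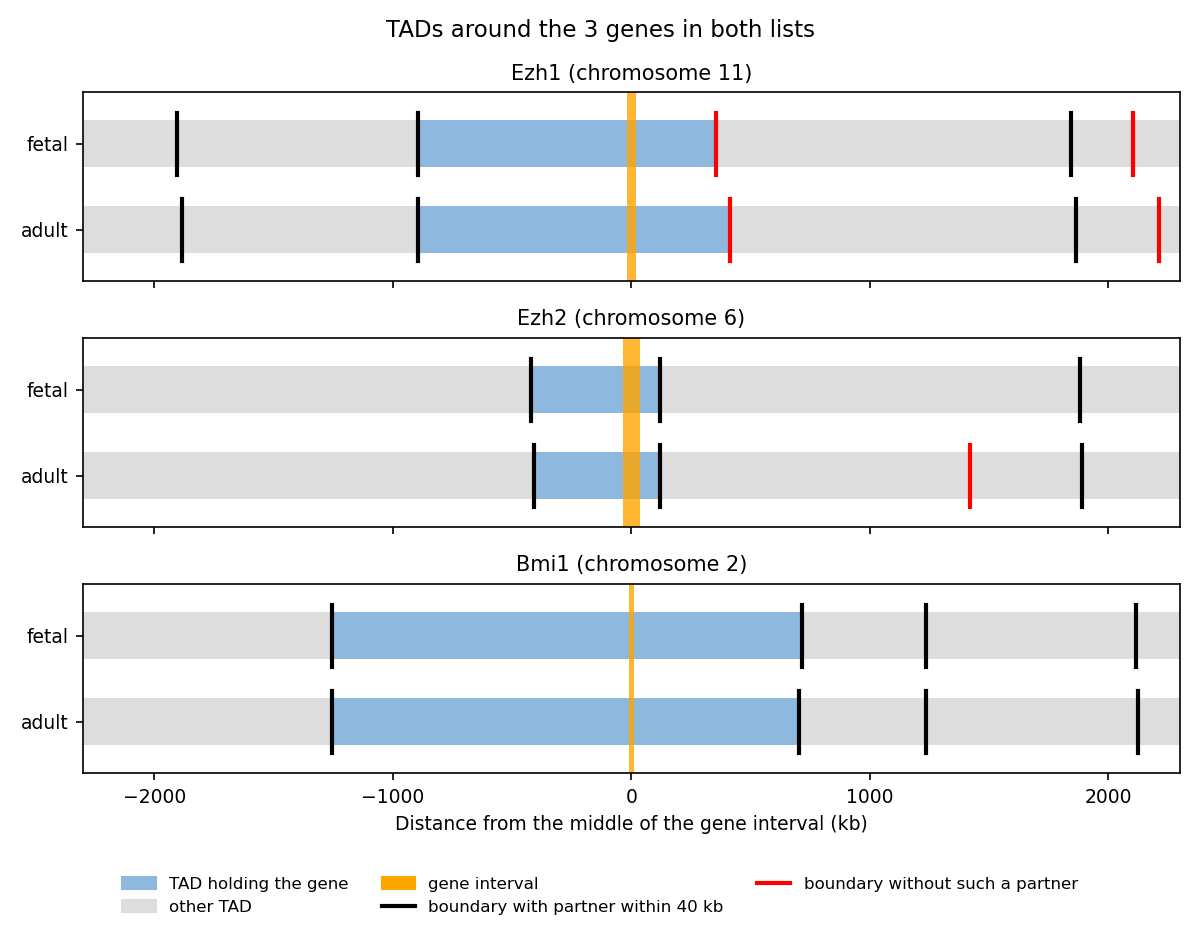
TADs of the fetal and adult lists drawn against distance in kb from the middle of the Ezh1, Ezh2 and Bmi1 intervals (orange). Blue bars are the TADs that hold the gene, grey bars are other TADs, black ticks are boundaries with a partner within 40 kb in the other list and red ticks are boundaries without one. The high end of the Ezh1 TAD is red in both lists, as are a fetal boundary 2085 kb and an adult boundary 2195 kb above Ezh1. The adult list alone has a boundary 1385 kb above Ezh2, and every boundary drawn around Bmi1 is black.

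The windows before the transcription starts are shown to identify the promoters of the 3 genes, and their strands say which edge of each approximate mm9 interval is taken as the promoter edge in the distances given for each gene. They are the 250 bases before the start of each gene as RefSeq gives them on the build GRCm38.p6, 5′ to 3′ on the strand of the gene. That build is not the build of the TAD lists, so these coordinates were set against no TAD. The windows are chr11:101226464-101226713 on the minus strand for Ezh1, chr6:47595031-47595280 on the minus strand for Ezh2 and chr2:18676768-18677017 on the plus strand for Bmi1. Capitals mark GATC, the site cut by MboI, the enzyme that digested the chromatin in this Hi-C protocol.
Ezh1: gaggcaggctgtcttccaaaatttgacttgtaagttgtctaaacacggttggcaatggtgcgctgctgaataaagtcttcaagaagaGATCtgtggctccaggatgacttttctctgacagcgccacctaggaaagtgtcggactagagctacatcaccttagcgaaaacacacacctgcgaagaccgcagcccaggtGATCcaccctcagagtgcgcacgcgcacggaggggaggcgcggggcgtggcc
Ezh2: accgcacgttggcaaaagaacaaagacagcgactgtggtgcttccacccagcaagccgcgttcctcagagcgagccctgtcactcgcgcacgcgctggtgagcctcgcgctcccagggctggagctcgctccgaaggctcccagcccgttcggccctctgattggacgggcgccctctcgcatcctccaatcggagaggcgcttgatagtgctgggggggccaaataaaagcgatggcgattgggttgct
Bmi1: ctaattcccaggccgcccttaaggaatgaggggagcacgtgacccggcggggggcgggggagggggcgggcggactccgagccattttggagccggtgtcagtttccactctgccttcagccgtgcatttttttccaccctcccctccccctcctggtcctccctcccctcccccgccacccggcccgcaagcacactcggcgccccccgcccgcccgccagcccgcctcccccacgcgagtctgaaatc

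The letters GATC, which read the same on both strands, occurred 2 times in the Ezh1 window and 0 times in the windows of Ezh2 and Bmi1. Of 32851 RefSeq windows of this length, 41.9% held at least 1 GATC. The Ezh2 window held 23 CpG dinucleotides and the Bmi1 window 21, and 13.3% and 16.3% of all windows held as many. The Ezh1 window held 14, a number reached by 29.4% of windows, against a median of 6. The GC content was 55.2% for Ezh1, 63.6% for Ezh2 and 70.4% for Bmi1, values reached by 41%, 20% and 8.79% of all windows. These are properties of the reference sequence and not of the cells studied.

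Ezh1, the PRC2 subunit prominent in resting cells, was the member whose TAD differed most between the stages. In the fetal list its TAD spanned chromosome 11 from 100175001 to 101425000, a length of 1250 kb. In the adult list it spanned 100175001 to 101485000, a length of 1310 kb. The low-coordinate end was thus at the same position, and the adult TAD reached 60 kb farther at the high-coordinate end. The fetal TAD lay whole inside the adult one and made up 95.4% of it. The pattern of 1 end kept within 10 kb and the other 50 to 100 kb away was found for 4.98% of all bins of 10 kb that lay in TADs of both lists.

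Ezh1 is read from the minus strand, so its promoter faces the end that differed. The promoter edge of the Ezh1 interval lay 335 kb from the high end of the fetal TAD and 395 kb from that of the adult TAD. To the low end it lay 915 kb in both lists. The gene stood in the upper part of its TAD at both stages, with its middle at 71.6% of the fetal and 68.3% of the adult length. No boundary of either list fell inside the gene interval.

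The Ezh1 TAD was longer than most. It exceeded 75.2% of fetal TADs and 79.8% of adult TADs in length. On its own chromosome, 67 of 96 fetal TADs and 84 of 108 adult TADs were shorter. Within 500 kb of Ezh1 each list had a single boundary, the unmatched one above the gene. A single boundary within 500 kb was the usual number, found in the fetal list for 51% of these bins and in the adult one for 50.4%.

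A displacement of the size seen above Ezh1 was uncommon over the whole lists and less so on its chromosome. Between 50 and 100 kb separated a fetal boundary from the nearest adult one in 110 of 2393 cases, or 4.6%. On chromosome 11 this held for 17 of 99 fetal boundaries, or 17.2%, and on the other chromosomes for 93 of 2294, or 4.05%. Boundaries are not replicates, and this difference was not tested. The nearest adult boundary lay higher in 7 of the 17 and lower in 10, so the displaced boundaries of chromosome 11 did not lean to the side seen at Ezh1. The median distance to the nearest adult boundary was 30 kb on chromosome 11 and 10 kb over all chromosomes. The boundary above Ezh1 therefore stands on the chromosome where boundaries matched least, with 61.6% of 99 fetal boundaries matched (95% exact Clopper-Pearson interval 51.3 to 71.2, counting error only).

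**Figure D2:**
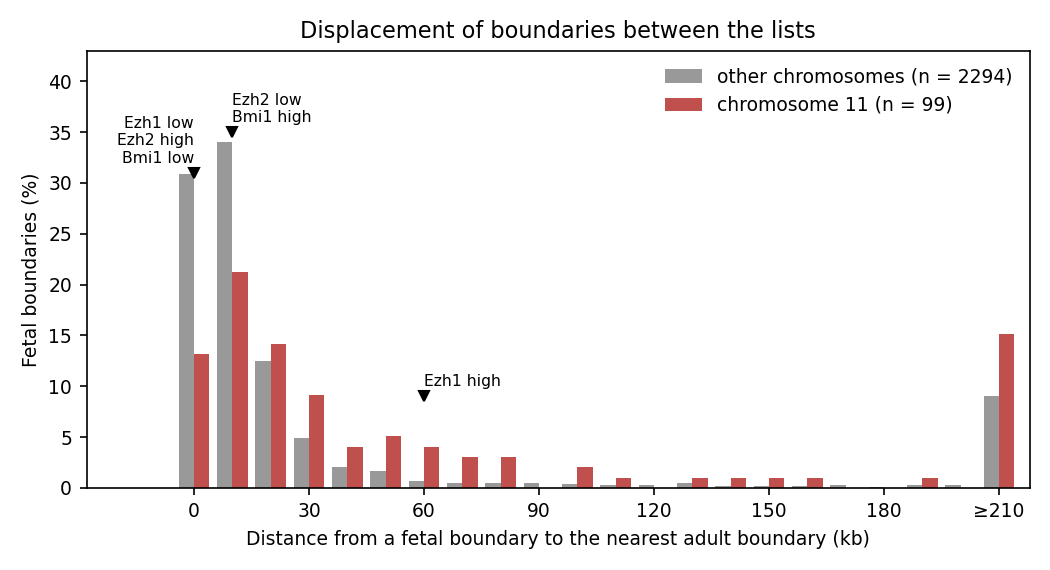
Share of fetal boundaries (percent, vertical axis) by distance in kb to the nearest adult boundary, for chromosome 11 (red, 99 boundaries) and all other chromosomes (grey, 2294), with distances of 210 kb or more in the last bar. Triangles mark the distances, not the heights, for the 6 ends of the TADs that hold the genes: 5 lie at 0 or 10 kb and the high end of the Ezh1 TAD lies at 60 kb.

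Measured by overlap, the Ezh1 TADs were closer than those of most of chromosome 11. The part in common was 95.4% of the union of the fetal and adult TAD. Over all 218819 bins in TADs of both lists the median of this measure was 97.1%, and 59.7% of bins reached the value of Ezh1. On chromosome 11 the median was 86.6%, and 33.7% of bins reached it. Both ends of the holding TAD matched within 40 kb for 36.6% of the bins of chromosome 11 and for 63.1% of all bins.

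The 3 TADs on each side of Ezh1 were each set beside the TAD of the other list that overlapped them most. A TAD could be called divided only where both of its ends were matched. This held for the 3 on the low side, and none of those was divided. Each of the 3 on the high side had an unmatched end, so the rule could not be applied to them. On the low side the next 3 fetal TADs measured 1010, 620 and 460 kb, and their adult counterparts measured 990, 630 and 480 kb. The boundaries between them differed by 20 kb or less, and 4 successive boundaries below Ezh1 were matched in each list before the first that was not. On the high side the next fetal TAD measured 1490 kb and the adult one 1450 kb. Beyond it stood a fetal TAD of 260 kb and an adult TAD of 350 kb, whose upper ends differed by 110 kb, at 103175000 and 103285000. The third pair on this side was a fetal TAD of 920 kb and an adult TAD of 830 kb, and 88% of the fetal TAD and 97.6% of the adult one lay in the overlap. In gene order on GRCm38 the protein-coding neighbours of Ezh1 were Tubg1, Tubg2, Plekhh3, Ccr10 and Cntnap1 on the low side and Ramp2, Vps25, Wnk4, Coa3 and Cntd1 on the high side. Tubg1 and Tubg2 encode gamma-tubulins and Ccr10 a chemokine receptor. The mm9 positions of these neighbours were not used here, so which of them share the TAD of Ezh1 was not determined.

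Ezh2, the PRC2 subunit of dividing cells, lay in a short TAD with almost the same ends at both stages. The fetal TAD spanned chromosome 6 from 47095001 to 47635000, a length of 540 kb. The adult TAD spanned 47105001 to 47635000, a length of 530 kb. The high end was identical and the low end differed by 10 kb, which is 1 step of the grid. Both ends within 10 kb were found for 38.7% of all bins and 41.5% of the bins of chromosome 6, so this close fit was common.

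Among the 3 genes Ezh2 lay nearest to a boundary. It is read from the minus strand, and the promoter edge of its interval lay 85 kb below the boundary at 47635000 in both lists. That edge was 455 kb from the fetal low end and 445 kb from the adult low end. Of all 10 kb bins inside TADs, 18.1% of those in fetal TADs and 18.7% of those in adult TADs lay within 85 kb of an end of their TAD. Bins were measured from their middle and Ezh2 from the edge of its interval, so the measures are not quite alike. The TAD of Ezh2 was short, with 25.7% of fetal and 25.9% of adult TADs shorter. Within 500 kb of the gene each list had 2 boundaries, both of them the ends of its own TAD and both matched, and 22.5% of fetal and 24.3% of adult bins had 2 boundaries within that distance.

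The difference near Ezh2 lay in the TAD above it. There the fetal list had a single TAD of 1760 kb, from 47635001 to 49395000. The adult list had 2 TADs over this stretch, of 1300 and 470 kb, which met at 48935000. That adult boundary lay 1385 kb above the gene and 460 kb from the nearest fetal boundary. The outer ends of the stretch matched, at 0 and 10 kb. A fetal TAD with matched ends and an adult boundary inside it occurred in 158 of 2318 cases, or 6.82%, and the reverse in 132 of 2310 adult TADs, or 5.71%.

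The 3 TADs next below Ezh2 had a counterpart each in the other list. A TAD of 2140 kb adjoined its own TAD on the low side in both lists, shifted as a whole by 10 kb, and the next one down was a fetal TAD of 1780 kb beside an adult one of 1790 kb. The third TAD down had a fetal length of 280 kb and an adult length of 320 kb, and its far end differed by 40 kb. The first unmatched boundary below Ezh2 was an adult one at 42645000, which lay 4835 kb below the gene and 250 kb from the nearest fetal boundary. In gene order on GRCm38 the nearest protein-coding neighbours on the low side were Cul1 and then Cntnap2. Cul1 is the scaffold of a ubiquitin ligase and Cntnap2 encodes a neuronal adhesion protein. On the high side RefSeq places the predicted genes Gm40369, Gm40367, Gm40365, Gm36327 and Gm40364.

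Bmi1, the PRC1 subunit, lay deep inside a long TAD that hardly differed between the stages. The fetal TAD spanned chromosome 2 from 17345001 to 19315000, a length of 1970 kb. The adult TAD spanned 17345001 to 19305000, a length of 1960 kb. The low end was identical and the high end differed by 10 kb. The TADs had 99.5% of their union in common, a value reached by 12.9% of all bins and 10.9% of those of chromosome 2. This measure depends on TAD length. The ends of the shorter Ezh2 TADs differed by as much, and there it was 98.1%, reached by 38.6% of all bins. The ends at Bmi1 thus fitted no better than those at Ezh2. Both ends within 10 kb, as for Bmi1, were found for 35.7% of the bins of chromosome 2.

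Neither list had a boundary within 500 kb of Bmi1. The gene is read from the plus strand, and the promoter edge of its interval lay 1245 kb above the low end in both lists. The high end was 725 kb away from it in the fetal TAD, against 715 kb for the adult TAD. An absence of boundaries within 500 kb was found for 24.1% of fetal and 23.4% of adult bins. The TAD was long, with 90.7% of fetal and 91.5% of adult TADs shorter, and 150 of 165 fetal TADs and 142 of 158 adult TADs of chromosome 2 were shorter. Bmi1 was thus the farthest of the 3 genes from any TAD end, followed by Ezh1 and then Ezh2, in the same order in both lists.

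Around Bmi1 the lists matched boundary by boundary over a long stretch. Going outward, the first boundary without a partner was a fetal one at 9955000, 8635 kb below the gene. On the high side it was an adult one at 28345000, 60 kb from the fetal boundary at 28405000. Between 9955000 and 28345000, a span of 18.39 Mb, each list had 18 boundaries, and the 18 fetal boundaries had 18 different adult partners. Of these pairs 7 were identical, 9 differed by 10 kb, 1 by 30 kb and 1 by 40 kb. No pair could differ by more than 40 kb, because the stretch was drawn to end at boundaries without a partner. Over all fetal boundaries, unmatched ones included, 30.1% had an identical partner, 63.6% one within 10 kb and 83.4% one within 40 kb. The like background is the 1996 fetal boundaries with a partner within 40 kb, of which 721 had an identical one and 1523 one within 10 kb. The adult boundary lay higher in 5 of the pairs that differed and lower in 6.

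The 17 TADs between the outermost of these boundaries adjoined without a gap in both lists. The fetal ones ranged from 500 to 2350 kb and the adult ones from 510 to 2360 kb. The longest was the TAD next to that of Bmi1 on the low side, at 2350 and 2360 kb. On the high side the next fetal TADs measured 520, 880 and 520 kb, and the adult ones 530, 890 and 510 kb. In gene order on GRCm38 the neighbours of Bmi1 were Commd3, Dnajc1, Mllt10, Skida1 and H2al2a on the low side, and Gm46725, Spag6, Pip4k2a, Armc3 and Msrb2 on the high side. Mllt10 is known as a fusion partner in leukaemia, and Pip4k2a encodes a lipid kinase.

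The distance from a gene to the nearest boundary without a partner, in either list, differed widely among the 3 genes. It was 335 kb for Ezh1, 1385 kb for Ezh2 and 8635 kb for Bmi1, beside a median of 1345 kb over all bins. As large a distance as that of Bmi1 was found for 1.66% of all bins and 0.717% of the bins of chromosome 2. Those bins of chromosome 2 all lay in the stretch around Bmi1 itself, so the 0.717% compares Bmi1 with no other stretch of the chromosome. For Ezh2 the share was 49.2% of all bins, near the middle of the distribution, and 40.4% of the bins of chromosome 6, where the median distance was 1055 kb. For Ezh1 it was 83.1% of all bins and 65.5% of the bins of chromosome 11, where the median distance was 575 kb. Bins of 1 stretch share their boundaries and are not independent, so these shares place the genes among bins and are no test. The value of Ezh1 rests on the tolerance, since at 100 kb its high end counts as matched and the distance becomes 2085 kb.

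**Figure D3:**
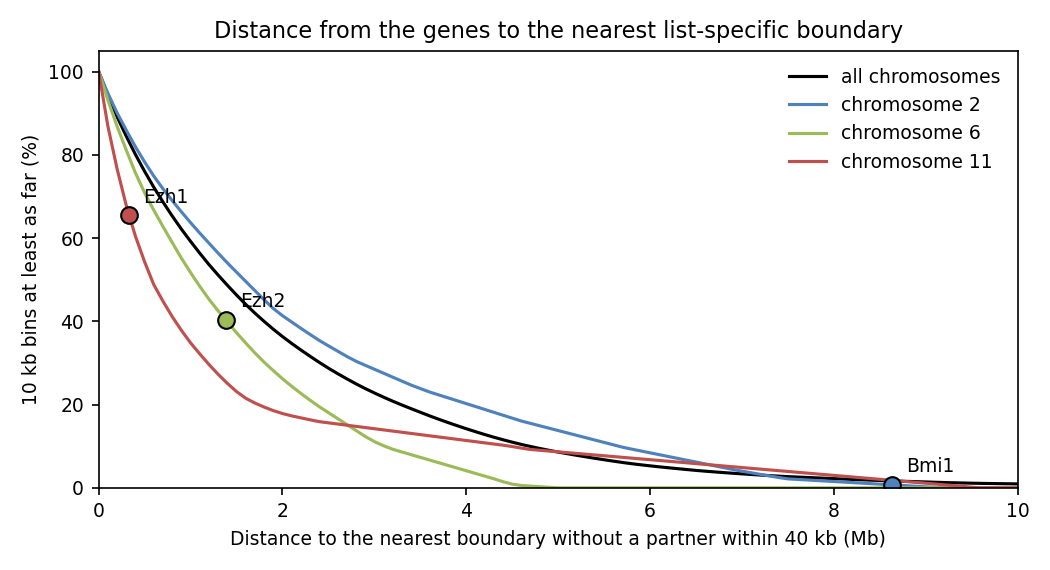
Share of 10 kb bins (percent, vertical axis) that lie at least as far as the horizontal value in Mb from the nearest boundary without a partner within 40 kb, for all chromosomes and for chromosomes 2, 6 and 11. Each gene is a circle at its own distance, on the curve of its chromosome: Ezh1 at 335 kb, Ezh2 at 1385 kb and Bmi1 at 8635 kb, the last in the tail of the curve of chromosome 2. At the distance of Bmi1 that curve holds only bins of the stretch around Bmi1.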

How the data were processed

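Hi-C was made from 4 samples of HSCs, 2 per stage. The authors deposited 1 TAD list per stage, as a chromosome, a start and an end in base pairs, with no score. The submitters' processing notes name the build mm9 and the tools HiC-Pro and GSNAP. The TAD caller, its settings and any pooling of samples are not stated in those notes or in the labels.

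Each distinct TAD start or end was taken as 1 boundary, so that adjoining TADs gave 1. Starts are printed counted from 1. For each gene the holding TAD, its neighbours, the boundaries within 500 kb and the successive matched boundaries on each side were read from both lists. All boundaries, all TADs and all 10 kb bins inside TADs of both lists served as background. Distances to boundaries were taken from the middle of a bin but from the nearest edge of a gene interval. Python 3.11.15, SciPy 1.17.1 and NumPy 2.4.6 were used, and the functions were tested on simulated data.

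The genes, the neighbour rule (the 5 nearest protein-coding genes on each side, of which some are not reported here) and the list of other Polycomb genes were chosen with earlier results of these data known. The other Polycomb genes were not analysed here, because the gene table used here is on GRCm38. RefSeq gene lengths of 35.3 kb (Ezh1), 65.0 kb (Ezh2) and 9.6 kb (Bmi1) are below the 40, 70 and 20 kb of the intervals used. All 3 genes matched a RefSeq promoter by symbol.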

Additional observations from a re-analysis of the deposited data

How the results depend on the processing

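Moving each gene interval by 50 kb to either side left all 3 genes in the same TADs, and the holding TADs overlapped by 50% and by 90% of both lengths for all 3 as well. Of the 6 ends, 3 were matched at 0 kb, 5 at 20 kb and 6 at 100 kb. Within 500 kb of the genes 2 of 3 boundaries were matched in each list. This became 1 at 0 kb, 3 of 3 at 100 kb, 1 of 1 within 250 kb of the genes and 4 of 5 within 1000 kb. The successive matched boundaries around Bmi1, 41 over both lists and sides, fell to 24 at 20 kb, while those of Ezh1 and Ezh2 stayed within 1.5 times. The nearest unmatched boundary was 2085 kb from Ezh1 at 100 kb. For Bmi1 it was 6075 kb away at 20 kb, a distance reached by 2.09% of bins, and the settings for this distance were chosen after seeing the data. The background followed the tolerance, with 30.1%, 76.2% and 88% of fetal boundaries matched at 0, 20 and 100 kb, and 30.2%, 76.2% and 88.2% of adult ones. Bins with both ends matched came to 9.02%, 53.7% and 69.6% at these tolerances, 63.3% on autosomes, 64.4% without chromosome 11 and 63.4% for TADs of at least 200 kb. Of 47 alternative values 26 stayed and 21 moved, the only 2 outcomes that the rules allowed. A share stayed inside its 95% binomial interval and a count or distance within 1.5 times, by these rules. For bins this interval is too narrow, since neighbouring bins are not independent. Changes as small as 63.1% to 63.3% were therefore counted as moved.

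No paired analysis was possible because each stage has a single list, and leaving out a replicate was not run for that reason. The unknown number of contacts limits every single boundary: the 60 kb at Ezh1 and the adult boundary above Ezh2 have no error to be set against. Depth, tissue and age cannot be told apart.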
